A study of Mus musculus with 6 samples.

Results

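The fibrillar collagens are the chains that build the striated fibrils of connective tissue. The 10 genes described here are Col1a1, Col1a2, Col2a1, Col3a1, Col5a1, Col5a2, Col5a3, Col11a1, Col11a2 and Col24a1. They were chosen by gene symbol, and all 10 were found among the 33924 genes of the deposited table. The libraries came from RPE/choroid, the retinal pigment epithelium scraped together with the vascular layer under it, of 3 young and 3 aged C57BL/6J mice labelled as male, with the tissue of 2 eyes in a sample. By their titles the young mice were 1 to 2 months old and the aged mice 20 to 24, whereas the age field of the latter gave 22 to 24 months. The authors' methods instead describe male and female mice, with 2 to 3 months for the young group and 20 to 24 for the aged. RNA was depleted of ribosomal RNA and labelled as poly(A) RNA. The deposited table gives 1 mean normalized count per gene, averaged by the authors over all 6 libraries of both ages, beside the columns of their own comparison of the ages. Those columns were not used here, so no comparison of young with aged mice was made, and each level below is a pooled value with no spread between mice.

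A fibrillar collagen chain is made as a longer procollagen whose central part winds with other chains into a triple helix. Glycine returns at a fixed interval along that helix, each time followed by a pair of other residues, because no larger side chain can be packed at its axis. The chains are hydroxylated and folded in the endoplasmic reticulum, secreted, trimmed of their propeptides and crosslinked into fibrils. Type I collagen joins 2 chains of Col1a1 with 1 of Col1a2, and type III is a homotrimer of Col3a1. Type V (Col5a1, Col5a2, Col5a3) is buried in type I fibrils and helps to set their diameter, type XI (Col11a1, Col11a2) plays that part in the type II fibrils of cartilage, and type XXIV (Col24a1) is a minor fibrillar collagen described in bone and cornea. In the eye, types I, III and V occur in the sclera, in the choroidal stroma and in the collagenous layers of Bruch's membrane, the sheet on which the RPE rests.

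The repeat can be read in the exons themselves. Below stands the first exon of 54 bases inside the helix region of a chain of type I, the chain of type III, a chain of type XI and the chain of type XXIV, shown because the members share this unit whatever their level. Sequences are from GENCODE transcripts on GRCm38, all on the plus strand, 5′ to 3′, and the capitals mark the glycine codons at the helix positions, 1 in every 9 bases.
Col1a2 exon 8, chr6:4515481-4515534: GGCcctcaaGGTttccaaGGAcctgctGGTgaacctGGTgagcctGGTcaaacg
Col3a1 exon 6, chr1:45325360-45325413: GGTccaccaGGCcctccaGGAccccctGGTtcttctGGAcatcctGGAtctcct
Col11a1 exon 15, chr3:114108281-114108334: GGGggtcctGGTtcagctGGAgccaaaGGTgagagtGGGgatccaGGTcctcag
Col24a1 exon 7, chr3:145328731-145328784: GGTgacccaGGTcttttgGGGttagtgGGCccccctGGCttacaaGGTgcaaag
Each of these exons holds 6 glycine codons at that spacing and is coding throughout. The exon of Col11a1 holds a further glycine codon, in lower case, off these positions. The GC content was 59.3% in the exons of Col1a2 and Col24a1 and 63.0% in those of Col3a1 and Col11a1.

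Col1a2 and Col3a1 stood far above the other fibrillar collagens in RPE/choroid. Col1a2, the α2 chain of type I, had a mean normalized count of 37221 over the 6 libraries, and Col3a1 had 35872. A longer transcript yields more reads, so that levels of single genes were compared after division by the length of the longest annotated transcript. The authors' methods name TPM, a measure of transcript abundance that is itself divided by length, as a step on the way to the normalized counts. The deposited means rose with transcript length over genes of all types pooled. They were read as undivided, which that rise cannot settle, and a direction that turns without the division is given as such below. On the scale per kb Col1a2 had 6960 and Col3a1 had 6447 normalized counts per kb. Together they made up 81.5% of the summed level per kb of the 10 genes. Both lay near the top of the whole transcriptome, at percentiles 97.1 and 96.9 of the 17948 genes of known length whose mean reached 10. Whether a level reflects many cells that express a gene or much RNA per cell cannot be told apart in bulk tissue.

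**Figure D1:**
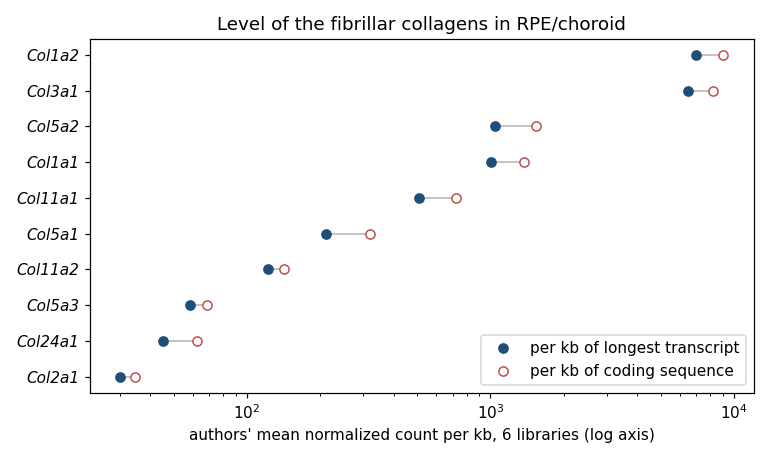
Level of the 10 fibrillar collagens as the authors' mean normalized count over 6 libraries, per kb of the longest transcript (filled) and per kb of coding sequence (open), on a log axis. Col1a2 lies highest at 6960 per kb of transcript and Col2a1 lowest at 30.2, and the order is the same on both scales.

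Col1a1 encodes the α1 chain of type I collagen. Its mean normalized count was 5990, which is 1010 per kb and percentile 82.2 of all genes. The level per kb of Col1a1 was 0.145 times that of its partner Col1a2, and that of Col3a1 was 6.38 times that of Col1a1. The ratio of Col1a1 to Col1a2 was 0.152 per kb of coding sequence and 0.161 with no division by length. The transcript of Col1a1 had a GC content of 58.9% and that of Col1a2 55.7%, and the part of GC content in the difference was not tested. Coding genes with a GC content of 58 to 62% had a median level of 192 per kb (1258 genes), and those with 54 to 58% had 231 per kb (2803 genes).

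The chains of type V spanned a wide range. Col5a2, the α2(V) chain, had a mean normalized count of 6940, or 1047 per kb, and stood at place 3 in the order of levels. Col5a1, the α1(V) chain, had 1772, or 211 per kb. Col5a3, a chain of more restricted expression, had 359, or 58.7 per kb. The level per kb of Col5a1 was thus 0.201 times that of Col5a2, and that of Col5a3 was 0.278 times that of Col5a1. Type V as a whole made up 8.01% of the summed level per kb, against 48.5% for type I and 39.2% for type III.

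Col11a1 was the main transcript of type XI. This chain can take the place of α1(V) in mixed type V and XI molecules outside cartilage. Col11a1 had a mean normalized count of 3904, or 509 per kb, which is 2.41 times the level per kb of Col5a1. Col11a2, the α2(XI) chain, had 740, or 122 per kb. The remaining chain of cartilage type XI comes from Col2a1, the gene of type II collagen, which had the lowest level of the members, with a mean normalized count of 154 and 30.2 per kb. The level per kb of Col2a1 was 0.0594 times that of Col11a1 and 0.247 times that of Col11a2. Type XI held 3.84% and type II 0.184% of the summed level per kb of the 10 genes.

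Col24a1 had a mean normalized count of 323, or 45.2 per kb. Its closest relative Col27a1, a fibrillar collagen that is not among the 10, had 464, or 61.0 per kb. The level per kb of Col24a1 was 0.742 times that of Col27a1, but 1.42 times with the median length of the coding transcripts. Both lay in the lower part of the transcriptome, at percentiles 22.4 and 26.8 of the level per kb. GENCODE places an antisense gene (9530034A14Rik) and a gene on the same strand (D530037P16Rik) across the span of Col24a1. Neither shares a stretch of 50 bases with its longest transcript, and whether the authors counted by strand is not given in the sources used here.

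From the highest to the lowest level per kb the order was Col1a2, Col3a1, Col5a2, Col1a1, Col11a1, Col5a1, Col11a2, Col5a3, Col24a1 and Col2a1. Col1a2 exceeded Col3a1 by 1.08-fold and Col5a2 exceeded Col1a1 by 1.04-fold. The widest step lay between Col3a1 and Col5a2, with 6.15-fold. Each of the remaining neighbours differed by at least 1.30-fold, the value between Col5a3 and Col24a1. With each gene divided by the median length of its coding transcripts, Col3a1 stood above Col1a2 by 4.05-fold and the ratio of Col5a3 to Col24a1 fell to 0.679. No replicate check of these steps could be made on a pooled mean, and no counting error is given because the depth of the libraries is unknown. The 10 genes together held 0.229% of all normalized counts. By level per kb 5 of the 10 lay above the median gene, and by the undivided mean, on which long transcripts stand higher, 7 did. The members lay between percentile 17.2 for Col2a1 and percentile 97.1 for Col1a2 of the level per kb.

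GC content differed between the members and is given beside their levels for that reason. The members with a GC content above 61%, Col2a1 (62.2%), Col11a2 (62.9%) and Col5a3 (61.6%), had levels of at most 122 per kb. Col11a1 (48.0%), Col5a2 (49.6%) and Col3a1 (52.5%) had levels of at least 509 per kb, while Col24a1 (51.0%) had 45.2. Over all coding genes the median level per kb was 125.5 in the 284 genes with a GC content above 62% and lay between 192 and 267 in the other classes. Within its own GC class Col1a2 was at percentile 97.3, Col3a1 at 97.2, Col1a1 at 86.9, Col5a2 at 83.7 and Col11a1 at 68.7. Lower in their classes were Col11a2 at 49.6, Col5a3 at 25.8, Col2a1 at 24.6 and Col24a1 at 19.5. In that comparison 6 members were above the median of their class, against 5 above the median of all coding genes, the gene that differed being Col5a1 at percentile 52.6. The part of GC content in the order of the members was not tested.

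**Figure D2:**
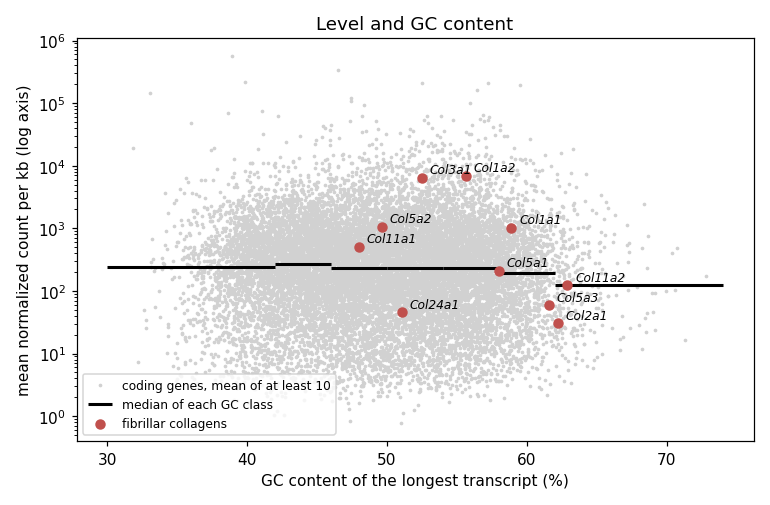
Level per kb (log axis) against the GC content of the longest transcript, for coding genes whose mean reached 10 (grey), with the median of each GC class (black lines) and the fibrillar collagens (red). Col1a2 and Col3a1 sit well above the medians of their classes, and Col24a1, Col5a3 and Col2a1 below.

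Among all 43 collagen genes of the table, none of which had a mean under 10, the 10 members held 29.3% of the summed level per kb. Col1a2 was at place 3 and Col3a1 at place 5. Col8a2 and Col8a1, short-chain collagens of Descemet's membrane and of vessel walls, had 12703 and 6466 per kb, and Col9a3, a chain of the fibril-associated type IX, had 7007. Col5a2 and Col1a1 followed at places 11 and 12, below Col6a1 (1577 per kb), the α1 chain of the beaded filaments that link fibrils to cells. Without division by length Col9a3 lay below Col1a2 (0.573 times) and Col3a1 (0.595 times), Col8a1 below Col3a1 (0.921 times) and Col6a1 below Col5a2 (0.932 times). Unequal partner chains were not limited to type I. The level per kb of Col9a3 was 25.6 times that of Col9a2, that of Col6a1 was 4.23 times that of Col6a2, and that of Col4a1 was 1.77 times that of Col4a2, although these chains also assemble with one another. The pairs outside the fibrillar collagens were chosen after the values had been seen.

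**Figure D3:**
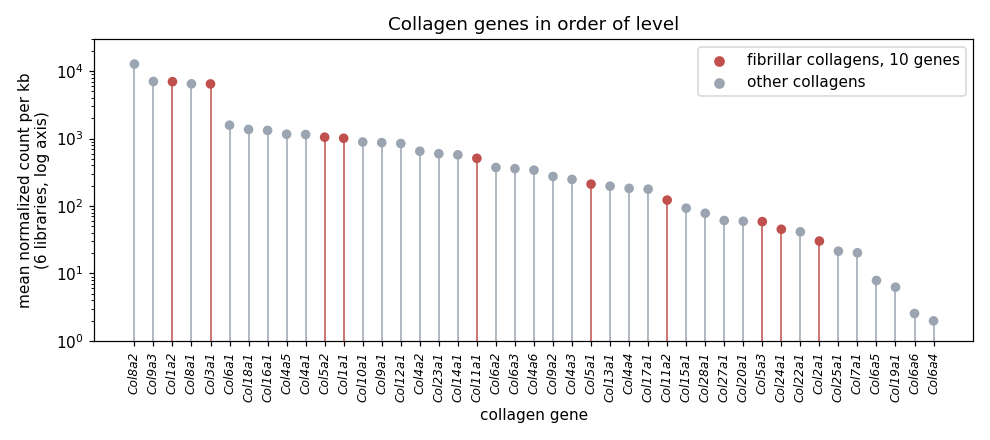
The 43 collagen genes in order of the authors' mean normalized count per kb over 6 libraries (log axis), with the 10 fibrillar collagens in red. Col1a2 and Col3a1 are at places 3 and 5, and Col5a3, Col24a1 and Col2a1 at places 34, 35 and 37.

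The fibril-associated collagens sit on the surface of fibrils. Of 9 such genes 2 reached 1000 per kb and 5 an undivided mean of 1000. Of all genes with a mean of at least 10, 18.0% reached 1000 per kb and 41.1% an undivided mean of 1000, and of the 10 fibrillar collagens 4 and 6 did. Col9a3 was the highest, and Col19a1 the lowest with 6.27 per kb. Of the network and beaded-filament collagens 5 of 16 reached 1000 per kb and 12 an undivided mean of 1000, with Col8a2 at the top and Col6a4 lowest at 1.98 per kb. Of the membrane and multiplexin collagens 1 of 6 reached 1000 per kb and 2 an undivided mean of 1000, with Col18a1, the source of endostatin, at 1363 per kb and Col25a1 at 21.4 per kb.

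Of 17 genes that fold procollagen 7 reached 1000 per kb and 12 an undivided mean of 1000. Serpinh1, the collagen chaperone Hsp47, was highest with 8133 per kb. On that scale it lay above each of the 10 chains, but without division by length it was 0.497 times Col1a2 and 0.516 times Col3a1. In the same list P4ha3, a prolyl hydroxylase subunit, was lowest with 5.65 per kb. Of the 8 genes for the removal of propeptides 1 reached 1000 per kb and 4 an undivided mean of 1000. Pcolce, an enhancer of C-propeptide cleavage, had 4284 per kb, and Adamts14, an N-propeptidase, had 6.41 per kb, the lowest of those with a mean of at least 10. Bmp1 (377 per kb) and Adamts2 (164 per kb), the main C- and N-propeptidases of type I collagen, were named outside the rule after their values had been seen. Of the 5 lysyl oxidases, which start crosslinking, 0 reached 1000 per kb and 4 an undivided mean of 1000. They ranged from Loxl1 with 931 to Loxl4 with 228 per kb. Of all genes with a mean of at least 10, 18.0% reached 1000 per kb and 41.1% an undivided mean of 1000.

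Among collagen receptors Itgb1, the shared β1 integrin chain, had 4982 per kb, and Itga2, the α2 chain of a collagen-binding integrin, had 5.01 per kb, the lowest of those with a mean of at least 10. Ddr2, a receptor tyrosine kinase for fibrillar collagen, was named after its values had been seen and had 773 per kb. Of the transcription factors that direct cartilage collagens, Sox9 was highest with 228 per kb and Runx2 lowest with 18.0 per kb.

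The tissue label was checked against marker genes. The RPE genes Rpe65 (61154 per kb), Rlbp1 (47916 per kb), Rgr (63232 per kb) and Ttr (335233 per kb) were far above the fibrillar collagens, while Best1 had 39.3 per kb. Of the fibroblast markers Dcn (18042 per kb) and Lum (10219 per kb) were above Col1a2, Lum only after division by length (0.672 times Col1a2 without it), whereas Pdgfra (798 per kb) and Pdgfrb (838 per kb) were below Col1a1. The endothelial markers lay between 179 per kb for Cdh5 and 1909 per kb for Plvap. The pigment genes listed as melanocyte markers lay between 4287 per kb for Tyr and 74294 per kb for Dct. Whether their RNA came from melanocytes or from the pigmented RPE cannot be told apart in this tissue. Genes of neighbouring tissues were present, with 28023 per kb for the skeletal muscle gene Acta1. Of the cartilage markers Acan had 5.87 per kb and Matn1 a mean of 0.650, while Cnmd had 293, Matn3 114.5 and Chad 59.8 per kb. Cnmd thus lay above the median gene (213.7 per kb) and above Col5a1, but its undivided mean of 420 lay below both (668 and 1772). Of the bone markers Bglap and Ibsp had means of 1.62 and 0.323, below the limit of 10, and Sp7 had a mean of 172, or 55.5 per kb. The share of each cell type in the collagen levels was not tested.

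The 10 genes were chosen by symbol as fibrillar collagens, whose helix repeat is described above. A long run of glycine codons therefore restates that choice, and the features below describe the family. The longest run of codons with a glycine codon (GGN) at every place the helix requires was computed in the longest coding sequence of each gene. In Col1a1, Col5a1, Col11a1 and Col11a2 it held 338 glycine triplets without a break, in Col1a2, Col2a1 and Col5a2 339, in Col5a3 337 and in Col3a1 344. Col24a1 stood apart with 216, from codon 568 to codon 1215. Only the longest unbroken run was taken, so any repeat beyond a break was not counted. The run began at codon 97 in Col1a2 and at codon 168 in Col1a1, counted from the start codon. In Col5a1, Col5a3, Col11a1, Col11a2 and Col24a1 it began between codons 478 and 568, after a longer N-terminal region.

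**Figure D4:**
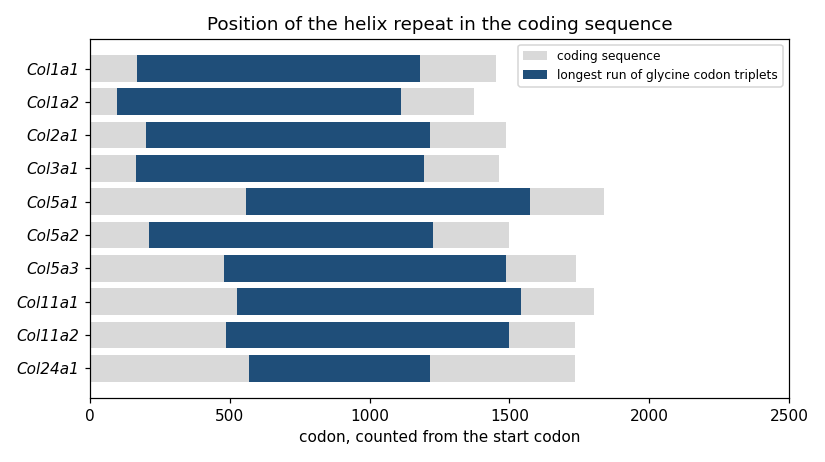
Coding sequence of each fibrillar collagen (grey) with the longest unbroken run of glycine codon triplets (blue), in codons from the start codon. The runs hold 337 to 344 triplets in 9 genes and 216 in Col24a1, and start later in Col5a1, Col5a3, Col11a1, Col11a2 and Col24a1.

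Inside these runs lay 435 exons, and all 435 had a length that is a multiple of 9 bases. Of them 260, or 59.8%, were exactly 54 bases long. Among 158645 internal coding exons of the other coding genes 0.564% had 54 bases and 14.0% a multiple of 9. Those exons were not limited to a helix repeat, so the sets compared are unlike. The further lengths in the members were 108 bases (76 exons), 45 bases (61 exons), 99 bases (25 exons), 162 bases (5 exons), 36 bases (4 exons) and 90 bases (4 exons). Exons of 99 and 162 bases occurred in Col1a1, Col1a2, Col2a1, Col3a1 and Col5a2, with 5 and 1 in each gene. Col5a1, Col5a3, Col11a1 and Col11a2 had none of either and carried instead 1 exon of 36 and 1 of 90 bases. Col24a1 had none of these lengths inside its shorter run, and exons outside that run were not counted. Col5a2 therefore shared its exon pattern with type I, II and III chains and not with Col5a1, its partner in type V. The members with the former pattern included the 4 with the highest level per kb but also Col2a1, the lowest.

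**Figure D5:**
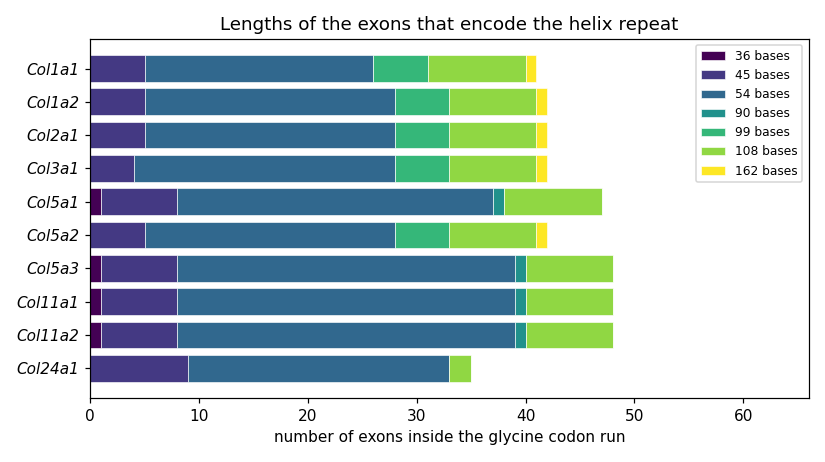
Number of exons inside the glycine codon run of each gene, stacked by exon length in bases. Exons of 54 bases are the most frequent class in all 10 genes, 21 to 31 in each, and exons of 99 bases occur in 5 genes only.

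The codon used for glycine also differed. GGT made up 55.9% of the glycine codons of the run in Col1a1 and 51.6% in Col1a2, against 23.1% in Col24a1 and 21.3% in Col11a2. It made up 41.3% in Col3a1, 41.6% in Col2a1, the member with the lowest level, and 35.1% in Col5a2, at place 3. The share of G or C at the last codon position of the run was 23.5% in Col3a1, 28.7% in Col1a2, 31.6% in Col1a1 and 45.9% in Col11a2. In Col11a1 it was 28.4% and in Col24a1 32.7%. Words of 50 bases from the longest transcripts were found in no other GENCODE gene for 9 members, and for 98.3% of the words of Col3a1, the rest being shared with Gm47302, an annotated miRNA gene inside it. Further GENCODE entries overlap the spans of Col5a1, Col5a3 and Col24a1 on the opposite strand and of Col1a2, Col5a2 and Col24a1 on the same strand. Of these only the entries opposite Col5a1 (2810430I11Rik and Gm13372) cover part of a longest transcript, with 1.44% of its words, which without strand could not be told apart from Col5a1.

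In GRCm38 the members lay on 8 chromosomes. Col1a1 (ENSMUSG00000001506) extended on chromosome 11 from 94936224 to 94953042 and Col1a2 (ENSMUSG00000029661) on chromosome 6 from 4504814 to 4541544, both on the plus strand. On chromosome 1, Col3a1 (ENSMUSG00000026043; plus strand, 45311538 to 45349706) and Col5a2 (ENSMUSG00000026042; minus strand, 45374321 to 45503282) were neighbours with 24614 bases between them, and their levels per kb differed by 6.15-fold. Col11a1 and Col24a1 shared chromosome 3 at a distance of 31071753 bases. The span of the genes ranged from 16819 bases for Col1a1 to 259540 bases for Col24a1.

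RefSeq promoter windows (GRCm38.p6, 250 bases before to 50 after the start) were held for 7 members, and Col1a1, Col2a1 and Col5a2 had no entry. A GC box (GGGCGG, both strands) was found in 5 of 7, Col11a1, Col11a2, Col1a2, Col5a1 and Col5a3, against 35.7% of all 32851 windows. CCAAT on either strand was found in 3, Col11a1, Col1a2 and Col5a3, against 37.4% of all windows, and TATAAA in 2, Col3a1 and Col11a2, against 13.6%. The GC content of the windows ranged from 37.7% in Col3a1 to 75.0% in Col5a1, with a median of 52.7% over all windows. Col1a2 and Col3a1, whose levels per kb differed by 1.08-fold, shared none of the 3 motifs.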

How the data were processed

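Poly(A) RNA of RPE/choroid from 3 young and 3 aged mice was measured. Per the authors' methods, read pairs were trimmed with BBDuk, mapped with STAR to Ensembl GRCm38 transcripts, quantified with Sailfish as TPM, converted to normalized counts by scaling to library totals, and tested between ages with DESeq2. The deposited signal used here is the authors' mean normalized count per gene over all 6 libraries. The other deposited columns hold the authors' own comparison of the ages (fold change, standard error, statistic and p-values) and were not used. The lowest means fall on 6 steps from 0.157 to 0.174, each a single scaled count in 1 library, and all 1713 means above 0 and below 3 of the lowest step are sums of these steps within 2e-06. The steps give a ratio of 1.11 between the largest and smallest scaling. Because values were scaled to totals beforehand, the depth of single libraries is unknown and a step need not be a read. TPM are divided by length already. The 6 steps together held 15.7% of genes above 0 under 250 bases and 0.136% of those of at least 5000. The median of genes with a mean of at least 10 rose from 41.4 to 1006 between these classes. It was 490 for 1000 to 2000 bases and 740 for 2000 to 5000. Genes of all types were pooled, so length and gene type cannot be told apart here. The values were read as not divided by length, which this contrast could not settle. If they were divided, the undivided values apply.

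Levels were divided by the longest GENCODE M21 transcript, matched by symbol or synonym for 97.1% of the 18479 genes with a mean of at least 10. No test was run, since each gene has 1 pooled value. Genes named are the members, the highest and lowest of each list among genes with a mean of at least 10, and the markers, some of which are not reported here. Members and lists were chosen with earlier results of these data known. The planned protein features were replaced by codons from GENCODE transcripts, and coding length came from GENCODE. The run finder and percentiles were tested on simulated data. Python 3.11.15, numpy 2.4.6, pandas 2.3.3 and matplotlib 3.10.9 were used.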

Additional observations from a re-analysis of the deposited data

How the results depend on the processing

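No paired analysis was possible because each gene has 1 mean over all libraries; for the same reason no library was left out, no age difference was computed, and the planned pseudocounts and filters on it were not run. Per kb of coding sequence, the ratio was 0.152 for Col1a1 over Col1a2, 0.208 for Col5a1 over Col5a2, 5.94 for Col3a1 over Col1a1, 2.24 for Col11a1 over Col5a1, 0.197 for Col11a2 over Col11a1 and 0.214 for Col5a3 over Col5a1, and Col1a2 with Col3a1 held 80.1% of the summed level. With no division by length these values were 0.161, 0.255, 5.99, 2.20, 0.190, 0.203 and 78.4%. With the median length of the coding transcripts they were 0.0841, 0.358, 48.2, 2.14, 0.176, 0.157 and 94.5%. The last setting divides Col3a1 by 737 bases, the median of its annotated transcripts, and kept 6 of 10 members at their place in the order, whereas the first and second kept all 10. None of these 6 ratios crossed 1 under these 3 settings. Among 22 further ratios, chosen after seeing the data, with no division Serpinh1 turned to 0.497 times Col1a2 and 0.516 times Col3a1, Lum to 0.672 times Col1a2, Col9a3 to 0.573 times Col1a2 and 0.595 times Col3a1, Col8a1 to 0.921 times Col3a1 and Col6a1 to 0.932 times Col5a2. With the median length Col3a1 turned to 4.05 times Col1a2, Col24a1 to 1.42 times Col27a1, Col5a3 to 0.679 times Col24a1, Serpinh1 to 0.724 times Col1a2 and 0.179 times Col3a1, Lum to 0.851 times Col1a2, Col9a3 to 0.603 times Col1a2 and 0.149 times Col3a1 and Col8a1 to 0.133 times Col3a1. Members above the median gene numbered 7, with 9 for no filter and 6 for a mean of at least 100. Per kb, 5 members lay above the median of all genes and of all coding genes, and 6 above that of coding genes of their GC class, comparisons added after seeing the data. Of 115 values under alternatives for the further ratios, percentiles and list counts, 29 stayed, 70 moved further and the 16 named above turned. To stay meant within 1 percentile, 1.5 times a count or, for ratios, a binomial interval on the scaled counts. That interval takes scaled counts as reads and holds no variation between mice. For ratios, stayed and moved are therefore labels only and measure no error. The pooled mean limits every statement to the 6 libraries together.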
